A study of Mus musculus with 26 samples.

Results

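The genes described here are the members of the 4 mouse Hox clusters, taken as every row of the deposited table whose symbol is Hoxa, Hoxb, Hoxc or Hoxd followed by a number. There were 38 such rows among 18198 genes: 11 in Hoxa on chromosome 6, 10 in Hoxb on chromosome 11, 9 in Hoxc on chromosome 15 and 8 in Hoxd on chromosome 2. On GRCm38 they span chr6:52155590-52260880 (minus strand), chr11:96194316-96368256, chr15:102921103-103036852 and chr2:74668310-74748442 (plus strand). Hoxd1 was not analysed here. RNA was sequenced from 26 libraries, 2 for each of 13 groups, so every comparison rests on n = 2 libraries per group. The starting cells were mouse embryonic fibroblasts (MEF, passage 2, grown with 10% serum). Reprogramming cells were fibroblasts infected with retrovirus for Pou5f1 (Oct4), Sox2 and Klf4 (OSK) and collected at days 0, 1, 3, 5 and 7, or infected with the same factors plus cJun (OSK+cJun) and collected at days 0, 1, 3 and 7. A last reprogramming group received OSK and a lentiviral hairpin against Sap30, a subunit of the Sin3 histone deacetylase complex (OSK+shSap30, day 7). The end points were induced pluripotent stem cells (iPSC, passage 5 to 8) and embryonic stem cells (ESC, passage 20 to 24, strain CBA/CaJ X C57BL/6J), both grown in N2B27 with 2i and LIF. The labels did not say which of 2 media, iCD1 or ESC medium, each reprogramming sample received. They also did not say whether the 2 libraries of a group were separate cultures, so p-values measure only the spread between these libraries, which may be technical.

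Hox proteins are homeodomain transcription factors that give cells their address along the head-to-tail axis and along the limb. Within a cluster the genes lie in the order in which they are used along the body, from paralogues with low numbers at the 3' end to those with high numbers at the 5' end, and all genes of a cluster are read in the same direction. Fibroblasts keep the Hox pattern of the body site they came from, whereas in pluripotent cells the clusters are mostly silent and carry polycomb marks. Below, paralogues 1 to 3 are called anterior, 4 to 8 central and 9 to 13 posterior.

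Promoter sequence from RefSeq (GRCm38.p6, 250 bases before the annotated start and 50 from it on) was matched for 21 of the 38 genes, in 23 windows. The windows of 3 genes on the plus strand of chromosome 2 are printed, because Hoxd8 and Hoxd3 are the members whose course over 7 days differed between OSK and OSK+cJun, and because Hoxd11 held the only Hox window with AP-1 letters, the site bound by cJun. Capitals mark TGANTCA, read on both strands, and the Hoxd8 and Hoxd3 windows hold none of the letters looked for.
Hoxd8, chr2:74704365-74704664: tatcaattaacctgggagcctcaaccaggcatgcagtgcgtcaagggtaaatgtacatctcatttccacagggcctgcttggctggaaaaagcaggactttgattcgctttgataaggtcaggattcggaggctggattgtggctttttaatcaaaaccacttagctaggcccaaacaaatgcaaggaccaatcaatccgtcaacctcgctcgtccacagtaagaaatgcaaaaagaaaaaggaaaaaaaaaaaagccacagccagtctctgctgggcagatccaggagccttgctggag
Hoxd3, chr2:74711743-74712042: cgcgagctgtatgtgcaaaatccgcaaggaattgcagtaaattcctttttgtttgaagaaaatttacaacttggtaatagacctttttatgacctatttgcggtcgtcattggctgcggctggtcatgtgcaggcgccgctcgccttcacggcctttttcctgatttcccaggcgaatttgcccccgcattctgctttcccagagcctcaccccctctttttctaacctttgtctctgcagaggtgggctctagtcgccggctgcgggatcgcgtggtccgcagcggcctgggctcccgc
Hoxd11, chr2:74679308-74679607: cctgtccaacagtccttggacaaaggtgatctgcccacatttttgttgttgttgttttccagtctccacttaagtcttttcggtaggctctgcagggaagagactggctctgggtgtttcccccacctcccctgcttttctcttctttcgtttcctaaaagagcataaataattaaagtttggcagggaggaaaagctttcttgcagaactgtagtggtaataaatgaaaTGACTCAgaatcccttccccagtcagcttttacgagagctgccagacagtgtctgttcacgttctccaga
The match in Hoxd11 began 20 bases before the annotated start, shown as -20 in the window's own count. TGANTCA occurred in 7.81% of all 32851 windows and in 4.35% of the 23 Hox windows. The octamer ATGCAAAT, bound by Oct4, was in 1.74% of all windows and in none of the 23 Hox windows. The Pbx-Hox site TGATTNAT was in 3.22% of all windows and in 2 Hox windows, those of Hoxa2 at position -111 and of a second Hoxd11 start at -73, both as ATCAATCA on the reading strand. Hox windows had a median GC content of 57.3% against 52.7% for all windows, and a median observed-to-expected CpG ratio of 0.596 against 0.384. These matches describe letters in the windows and were not tested as binding sites.

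The deposited values are whole-number scores that the authors had brought to the same distribution in every library: the median gene stood at 61 and the highest at 21544. They are not counts, and the sequencing depth is unknown. Differences are therefore log2 differences of value plus 1, a scale that understates the change of genes near 0, and a gene at 0 is described as listed at 0. A gene was called when the limma adjusted p was below 0.05 and the log2 difference was at least 1 in size. Of the 38 members, 37 passed the filter of a value of 10 or more in at least 2 libraries and were tested among 16038 genes; Hoxb1 never exceeded 3. Hoxb13, Hoxc12 and Hoxc13 passed the filter through the pluripotent libraries alone, so they had to differ between those and the rest, and their calls are descriptions.

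Values below compare a library's rank among its own genes, and another reference moves them. When 10 housekeeping genes were held level instead, every gene shifted by -1.33 on the log2 scale between OSK day 0 and day 7, by -0.96 between OSK+cJun day 0 and day 7, by 0.53 between OSK+cJun and OSK at day 7, by 0.74 between OSK+shSap30 and OSK at day 7, and by 0.23 between ESC and MEF. The median of all tested genes between ESC and MEF was itself 0.13. The shift was -1.26 and -0.90 from OSK day 0 to days 3 and 5, and -0.98 from OSK+cJun day 0 to day 3. Counts on this reference are given beside the comparisons between days and between treatments where it moves them most. The share of all genes called on this reference is not given here. Such counts include the common shift and are not read as results about the members. In bulk RNA, fewer cells that express a gene and less RNA of it in each cell cannot be told apart.

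The 2 libraries of OSK day 5 stood apart from each other. Pou5f1, one of the delivered factors, was at 656 in replicate 1 and at 21544 in replicate 2, while 6 other pluripotency markers summed to 96 and 119. The 8 fibroblast markers summed to 30186 and 11258, of which the 6 other than the collagen genes Col1a2 and Col3a1 made up 2504 and 1506. Between its replicates, posterior Hox genes also ran against the other OSK and OSK+cJun groups, as described below. Day 5 results are given with and without each library.

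In MEF, 30 of the 38 members had a value of at least 10 in both libraries. Per kilobase of exon the highest level was that of Hoxb9, a thoracic-level gene, at 121 per kilobase, followed by Hoxc6 at 72.5, Hoxc8 at 51.4 and Hoxc10 at 50.6. As deposited, Hoxb9 stood at 229 and 396 in the 2 MEF libraries, Hoxc6 at 138 and 211, and Hoxc8 at 107 and 184. The 5 highest members per kilobase all lay at paralogues 6 to 10 of Hoxb and Hoxc, but ranks 5 and 6 overlap. Rank 5 was Hoxb8 at 41.4 per kilobase, with 62 and 156 in the 2 libraries, and rank 6 was Hoxa5. In the Hoxa cluster the highest per kilobase were Hoxa5 at 40.8 and Hoxa10 at 36.9, and their spread differed: Hoxa5 was at 130 and 23, whereas Hoxa10 was at 124 and 117. The highest Hoxd member was Hoxd8 at 26.1 per kilobase, with 49 and 94 in the 2 libraries. Per kilobase the libraries of Hoxc6 and Hoxc8, and those of Hoxc8 and Hoxc10, overlap, so these neighbours in the order do not differ beyond their spread. The extreme posterior genes Hoxb13 and Hoxc12 were listed at 0 in both libraries, and Hoxc13 stood at 2 and 0.

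**Figure D1:**
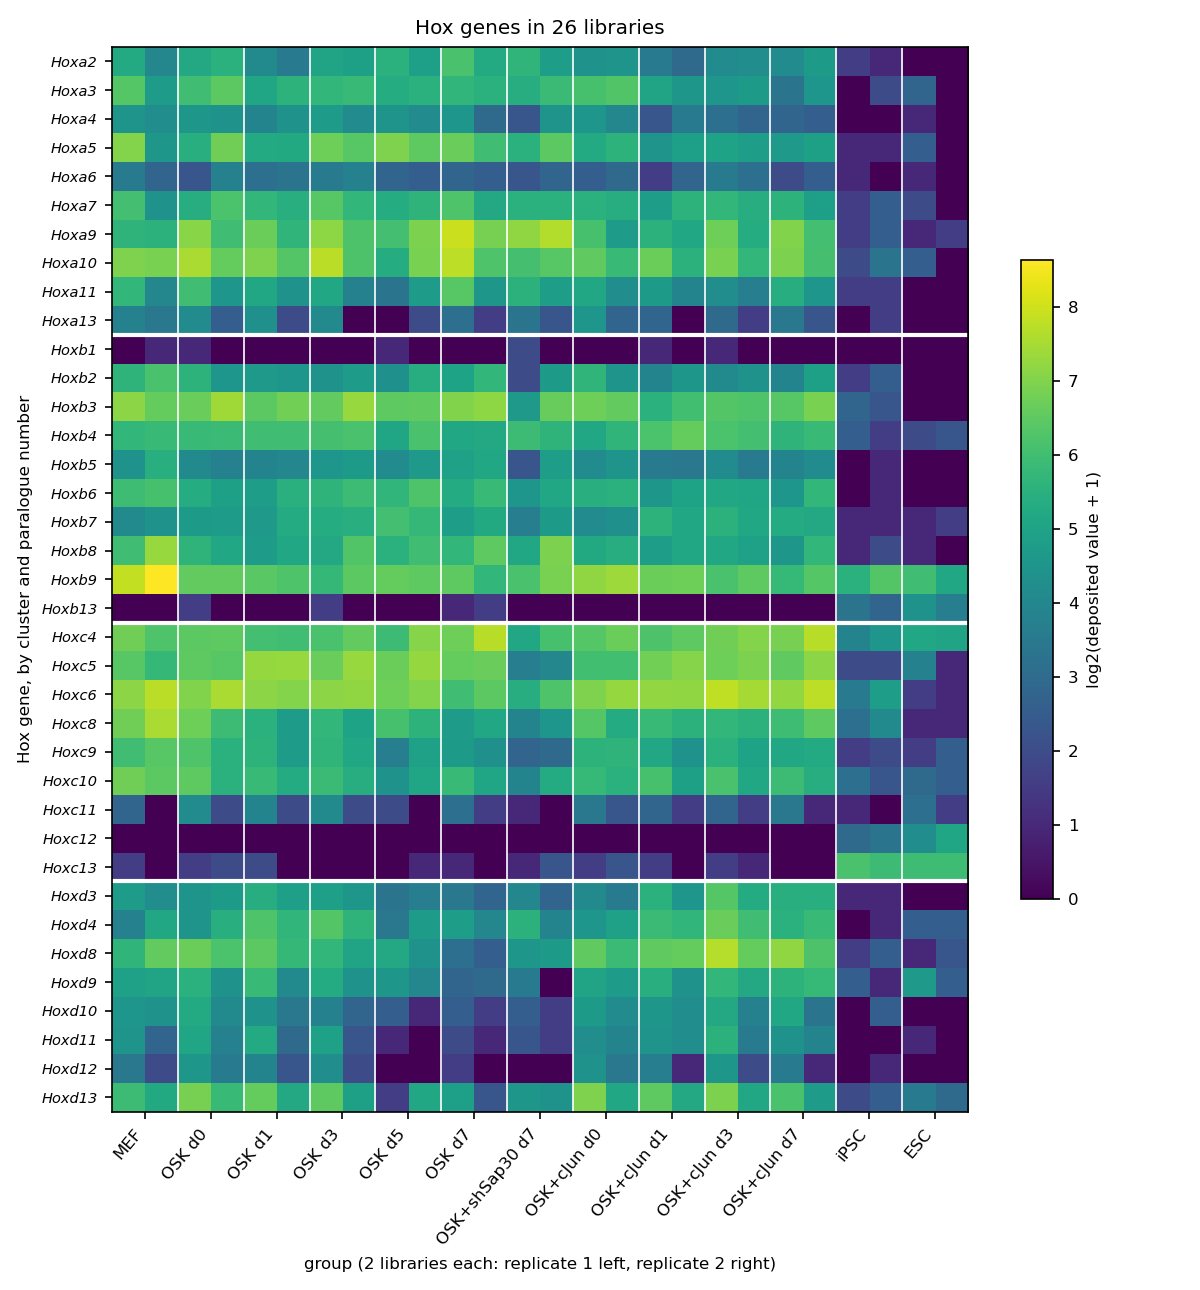
Heat map of log2(deposited value + 1) for 37 Hox genes (rows, by cluster and paralogue number) in 26 libraries (columns, replicate 1 left and replicate 2 right of each group). Most rows are bright from MEF to day 7 and dark in iPSC and ESC, while Hoxb13, Hoxc12 and Hoxc13 are bright only in those 4 pluripotent libraries. The Hoxd8 row, at 8 and 5 in OSK day 7 and at 145 and 74 in OSK+cJun day 7, shows the contrast between the treatments.

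Against MEF, ESC had lost most Hox RNA from all 4 clusters. The summed value of all members was 2066 and 2152 in MEF and 325 and 233 in ESC, a mean of 13.2% of MEF. Of the 37 tested members, 30 fell and 3 rose, where 20.6% of all tested genes fell and 22.4% rose; the median log2 difference was -3.85 for the members and 0.13 for all genes. Falls were spread over the clusters, with 10 of 11 in Hoxa, 8 of 9 in Hoxb, 6 of 9 in Hoxc and 6 of 8 in Hoxd, and with all 15 central members. In ESC, 11 of the 38 were listed at 0 in both libraries, so for these no size of change is given. Hoxb3, a hindbrain and neck patterning gene, was one of them, against 138 and 95 in MEF. Hoxc8, which patterns the lower thorax, was at 1 and 1 in ESC against 107 and 184 in MEF, a log2 difference of -6.14 (SE 0.45, limma adjusted p = 4.77e-09). Hoxb8, its paralogue, was at 1 and 0 against 62 and 156 (-6.14, SE 0.60, limma adjusted p = 1.50e-07). The libraries of the groups do not overlap for any of these 3 genes, which were picked among called members without overlap. Of all tested genes, 33.1% lay lower and 40.9% higher without overlap in this comparison. Leaving out 1 library at a time kept 28 of the 33 calls in every case. Hoxa13 and Hoxd12, posterior genes of the limb and hindgut that are low in MEF, were among those that did not hold: Hoxa13 lost its call without either library of either group (adjusted p up to 0.0789) and Hoxd12 without MEF replicate 1 or either ESC library (adjusted p up to 0.235).

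A few members went the other way, all of them from the 5' ends of Hoxb and Hoxc. Hoxc13, known for its role in hair and nail, was at 61 in both ESC libraries and at 71 and 59 in iPSC, against 2 and 0 in MEF. Hoxc12 was at 18 and 33 in ESC and at 7 and 9 in iPSC, and was listed at 0 in all 22 libraries of the other groups. Hoxb13, a tail-bud and prostate gene, was at 20 and 12 in ESC and at 9 and 6 in iPSC, and in the other groups it did not exceed 2. Within paralogue group 13 the members thus went in opposite directions between ESC and MEF: Hoxb13 and Hoxc13 rose, Hoxa13 fell from 13 and 10 to listed at 0, and Hoxd13 (60 and 37 in MEF, 11 and 7 in ESC) did not pass the test. In group 12, Hoxc12 rose and Hoxd12 fell. Other members that were not low in ESC were Hoxb9, at 63 and 35 against 229 and 396 in MEF, and Hoxc4, at 34 and 32 against 107 and 76; both fell, by 2.65 and 1.42 on the log2 scale (limma adjusted p = 1.09e-05 and 0.00677), and the Hoxc4 call was lost without MEF replicate 1 (adjusted p = 0.0603).

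**Figure D2:**
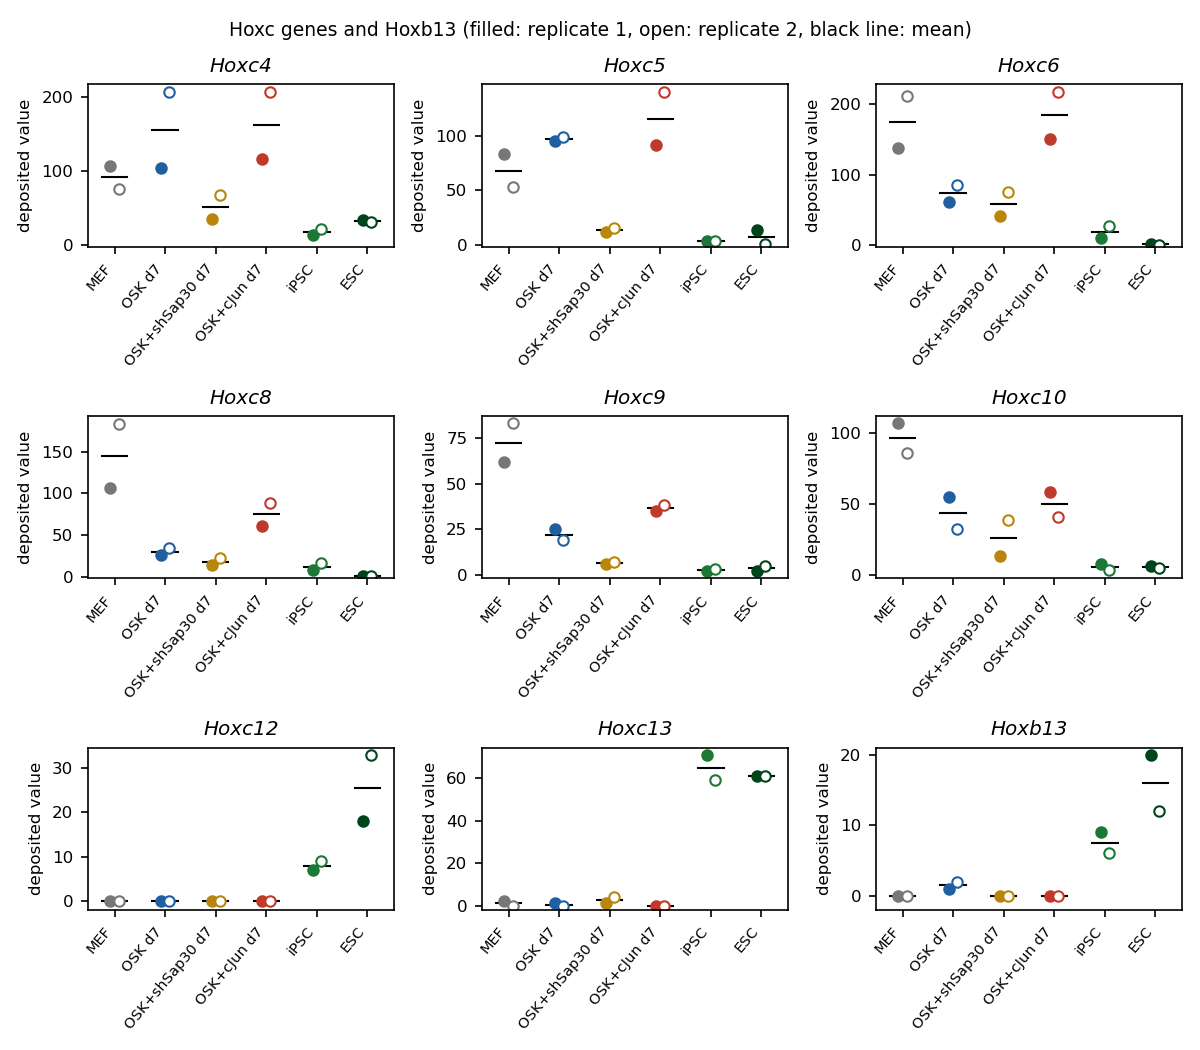
Deposited values (y axis) of 8 Hoxc genes and Hoxb13 in 6 groups, with replicate 1 filled, replicate 2 open and a black line at the mean of the 2 libraries. Hoxc12, Hoxc13 and Hoxb13 are above 5 only in iPSC and ESC, whereas Hoxc4 to Hoxc10 are lowest there, and Hoxc5 is at 12 and 15 in OSK+shSap30 against 95 and 99 in OSK at day 7.

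In iPSC most Hox RNA was also low, and the comparison with MEF shares its control libraries with the one above. All members summed to 234 and 304 in iPSC. Against MEF 30 fell and 3 rose, where 19.7% of all genes fell and 20.2% rose, with a median of -3.50 for the members and 0.04 for all genes. Hoxb6, a trunk gene, was at 0 and 1 in iPSC against 61 and 68 in MEF (-5.53, SE 0.44, limma adjusted p = 3.08e-08). Hoxb8 was at 1 and 3 (-5.14, limma adjusted p = 2.06e-06), and Hoxa5, which patterns the lung and the cervical spine, was at 1 in both iPSC libraries against 130 and 23 in MEF (-4.81, limma adjusted p = 3.05e-05). Of the 33 calls, 30 held whichever library was left out; that of Hoxd13 was lost without MEF replicate 1 and without iPSC replicate 1 (adjusted p up to 0.0859).

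Directly compared, iPSC and ESC differed in 4 members, where 4.57% of all genes were higher in iPSC and 1.65% were lower. Hoxc6, a thoracic and forelimb-level gene, was at 11 and 27 in iPSC and at 2 and 1 in ESC (2.90, SE 0.38, limma adjusted p = 4.92e-05). Hoxc8 was at 8 and 16 against 1 and 1 (2.63, SE 0.45, limma adjusted p = 0.000929), and Hoxb3 was at 6 and 4 in iPSC against listed at 0 in ESC. Hoxd4 went the other way, at 0 and 1 in iPSC and 5 and 5 in ESC, and lost its call without any of the 4 libraries (adjusted p up to 0.305). Hoxc6 and Hoxc8 were among the 3 highest members per kilobase in MEF. The highest, Hoxb9, was not called, at 45 and 79 in iPSC and 63 and 35 in ESC, and Hoxb3 had rank 11 in MEF. Fibroblast markers were also higher in iPSC: the 8 genes summed to 7495 and 13967 in iPSC and to 170 and 626 in ESC. Each of the 8 was higher in both iPSC libraries than in either ESC library. The part of such markers in the result was not tested. On a scale from 0 at the ESC mean to 100% at the MEF mean, the 24 members that lay at least 20 higher in MEF kept a median of 0.44% and 3.53% in the 2 iPSC libraries, and the fibroblast markers 5.54% and 11.9%. Hoxc6 kept 5.49% and 14.7%, and Hoxc8 4.84% and 10.4%. Under a spread taken from these 4 libraries alone none of the 4 calls remained (limma adjusted p from 0.0755 to 0.122).

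Few members passed the test up to day 3. Between MEF and OSK day 0, Hoxb9 fell from 229 and 396 to 94 and 94 (-1.67, SE 0.37, limma adjusted p = 0.00763), and no other member was called, where 2.06% of all genes fell and 4.92% rose. This call was lost without MEF replicate 2 (-1.28, adjusted p = 0.108) and without OSK day 0 replicate 2 (-1.67, adjusted p = 0.0558). From day 0 to day 1 of OSK limma called 0 of 37 members, with 2 at an unadjusted p under 0.05, where 3.18% of all genes rose and 3.12% fell. At day 3 it again called 0, with 2 at an unadjusted p under 0.05, where 8.55% rose and 8.69% fell. Hoxc6 was at 127 and 185 on day 0, at 138 and 131 on day 1 and at 138 and 147 on day 3. Hoxa10, a lumbar-level and limb gene, was at 184 and 96, then 124 and 79, then 213 and 74. With housekeeping genes held level, every gene shifted by -1.26 from day 0 to day 3. On that reference 15 members were called lower at day 3, with all 37 below 0.

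At day 5 of OSK, 6 members fell and 1 rose against day 0, where 9.86% of all genes fell and 9.8% rose. Of the falls 5 were in Hoxd. Hoxd11, a forearm and sacral gene, was at 33 and 13 on day 0 and at 1 and 0 on day 5 (-3.95, SE 0.92, limma adjusted p = 0.00371). Hoxd12 was at 23 and 11 on day 0 and listed at 0 in both day 5 libraries. Hoxd13, the most distal limb gene of the cluster, was at 115 and 56 and then at 2 and 34 (-2.99, SE 1.06, limma adjusted p = 0.0468). Hoxb7, a trunk gene, was at 25 and 26 and then at 65 and 53 (1.17, limma adjusted p = 0.0292). Single libraries decided part of this: without OSK day 0 replicate 1 there were 0 calls, and without OSK day 0 replicate 2, day 5 replicate 1 or day 5 replicate 2 there were 4 each. Hoxd13 without day 5 replicate 1 was at -1.22 (adjusted p = 0.486). The call of Hoxb7 was lost without any 1 of the 4 libraries (adjusted p up to 0.138), and with housekeeping genes held level it was at 0.27, with 18 members then lower and 0 higher.

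At day 7 of OSK the Hoxd cluster stood furthest below its starting level. Hoxd genes summed to 398 and 255 on day 0 and to 89 and 40 on day 7, a mean of 19.8%. Over the same interval the Hoxa sum went from 624 and 558 to 935 and 426, the Hoxb sum from 428 and 445 to 430 and 498, and the Hoxc sum from 593 and 510 to 376 and 480. Limma called 8 members lower and 0 higher, where 12.6% of all genes were lower and 11.3% higher, with medians of -0.48 for the members and 0.06 for all genes. By cluster, 5 of 8 fell in Hoxd, 3 of 9 in Hoxc, 0 of 11 in Hoxa and 0 of 9 in Hoxb; with housekeeping genes held level the numbers became 8, 5, 3 and 4, and the cluster medians, lowest in Hoxd at -2.68, became -4.01 in Hoxd, -2.04 in Hoxc, -1.38 in Hoxa and -1.02 in Hoxb.

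Hoxd8, a central gene of trunk and gut, fell most clearly. It was at 102 and 72 on day 0, 86 and 53 on day 1, 52 and 32 on day 3, 36 and 20 on day 5 and 8 and 5 on day 7. Its libraries on day 0 and day 7 are far apart (-3.56, SE 0.54, limma adjusted p = 6.55e-05), and the call held whichever library was left out (-3.85 to -3.27). Of the posterior members, Hoxd10 was at 38 and 16 and then at 5 and 2 (-2.60, limma adjusted p = 0.0242). Hoxd11 was at 33 and 13 and then at 3 and 1 (-2.95, SE 0.92, limma adjusted p = 0.0197), and Hoxd12 at 23 and 11 and then at 2 and 0 (-3.29, SE 1.10, limma adjusted p = 0.029). Hoxd13 was at 115 and 56 and then at 28 and 4, and Hoxd9 at 45 and 20 and then at 6 and 7; both missed the threshold (limma adjusted p = 0.0571 and 0.0997). At the anterior end Hoxd3 fell from 21 and 25 to 10 and 6 (-1.45, SE 0.48, limma adjusted p = 0.0294), whereas Hoxd4 was at 21 and 42 and then at 27 and 15 and was not called. Hoxd3 and Hoxd4 share 62.8% and 52.3% of their exon bases with other annotated genes, each other included, so how reads were split between them is uncertain. In Hoxc, the falls were those of Hoxc6 (127 and 185 to 62 and 86), Hoxc8 (106 and 59 to 26 and 34) and Hoxc9 (76 and 45 to 25 and 19), with log2 differences of -1.06, -1.38 and -1.38. Their neighbours Hoxc4 and Hoxc5 did not pass: Hoxc4 was at 87 and 88 and then at 104 and 207, and Hoxc5 at 89 and 82 and then at 95 and 99. Their log2 differences of 0.74 and 0.18 turned to -0.59 and -1.15 with housekeeping genes held level.

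These calls apart from Hoxd8 depended on single libraries. Without day 7 replicate 2 only that of Hoxd8 was kept, without OSK day 0 replicate 1 there were 2 of the 8, and without day 0 replicate 2 or day 7 replicate 1 there were 5 of the 8. Hoxd12 lost its call in 3 of the 4 cases (adjusted p up to 0.207), and Hoxd10 and Hoxd11 in 2, those without day 0 replicate 1 and without day 7 replicate 2 (adjusted p up to 0.181 and 0.156). Fibroblast markers fell over the same days, with sums of 46523 and 57058 on day 0 and 11323 and 10846 on day 7 and each of the 8 lower in both day 7 libraries, and their part in the Hox result was not tested. With the spread estimated from these 4 libraries alone, 1 member was called.

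**Figure D3:**
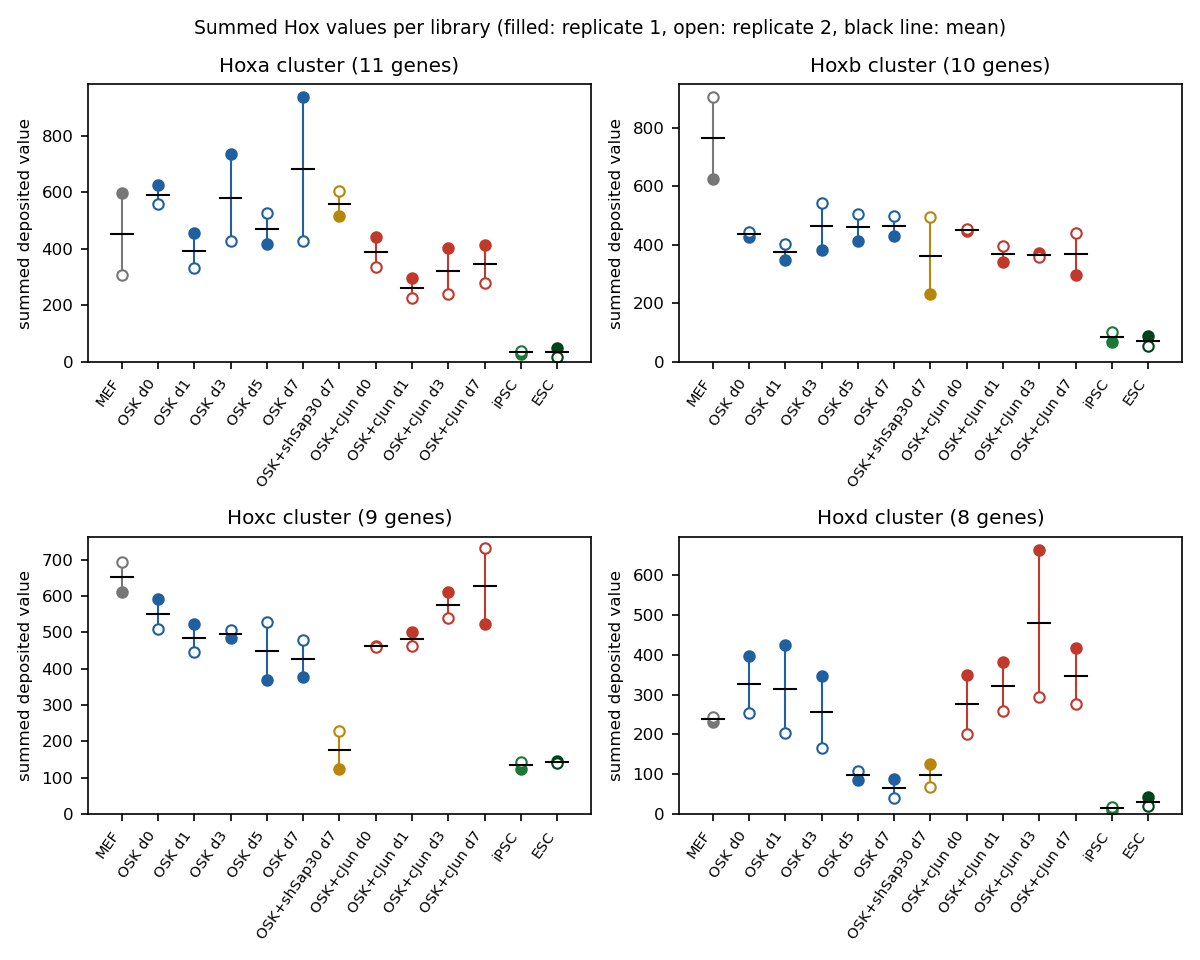
Summed deposited value (y axis, from 0) of the genes of each Hox cluster in the 13 groups, with replicate 1 filled, replicate 2 open and a black line at the mean of the 2 libraries. The Hoxd sum is 86 and 108 at OSK day 5 and 89 and 40 at day 7 but 416 and 276 at OSK+cJun day 7, and the Hoxc sum is lowest among reprogramming cells in OSK+shSap30, at 124 and 230.

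From OSK day 7 to iPSC, which are a later and selected population, 24 members fell and 3 rose, where 15.7% of all genes fell and 14.7% rose. By cluster the falls were 9 of 11 in Hoxa, 7 of 9 in Hoxb, 6 of 9 in Hoxc and 2 of 8 in Hoxd, and the comparison shares the OSK day 7 libraries with the one above. Hoxa9, a posterior gene known from blood stem cells and leukaemia, was at 243 and 115 in OSK day 7, its highest level of the series, and at 2 and 5 in iPSC (-5.31, SE 0.61, limma adjusted p = 2.92e-06). Hoxa5 was at 99 and 62 and then at 1 and 1 (-5.31, limma adjusted p = 1.89e-05), and Hoxb6 at 39 and 57 and then at 0 and 1 (-5.09, limma adjusted p = 1.30e-07). The 3 that rose were again Hoxb13, Hoxc12 and Hoxc13. With housekeeping genes held level, 20 fell and 4 rose, and Hoxc8 moved from -1.31 to 0.08. Hoxb13, at 1 and 2 in OSK day 7, lost its call without any 1 of the 4 libraries (adjusted p up to 0.186).

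With cJun added, the Hoxd sum at day 7 was 125.6% of its mean at day 0, and the median log2 difference of the 8 genes was 0.28. With housekeeping genes held level that median turned to -0.67, with 7 of 8 below 0 and 1 called lower. Jun is the AP-1 subunit whose own value was 4616 to 8981 in the 8 OSK+cJun libraries and 321 to 1010 in the 10 OSK libraries. The Hoxd sums were 350 and 201 on day 0, 382 and 260 on day 1, 664 and 295 on day 3 and 416 and 276 on day 7. From day 0 to day 1 limma called 0 of 37 members, with 4 at an unadjusted p under 0.05, where 4.38% of all genes rose and 3.87% fell. Hoxb9 was at 147 and 166 and then at 103 and 104, and Hoxc6 at 124 and 154 and then at 151 and 145.

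At day 3 of OSK+cJun 2 members rose and 0 fell against day 0, where 7.44% of all genes rose and 6.9% fell. Hoxd3 was at 16 and 11 and then at 81 and 39 (2.00, SE 0.48, limma adjusted p = 0.00674). Hoxb7 was at 17 and 19 and then at 46 and 35 (1.12, SE 0.38, limma adjusted p = 0.047). With housekeeping genes held level the counts became 0 higher and 10 lower, with 34 of 37 below 0, and the 2 genes were at 1.02 and 0.13. Hoxd3 also lost its call without day 0 replicate 2 (1.75, adjusted p = 0.0694) and without day 3 replicate 1 (1.49, adjusted p = 0.116). Hoxb7 lost its call without any 1 of the 4 libraries (adjusted p up to 0.261).

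At day 7 of OSK+cJun, 1 member rose and 3 fell against day 0, where 8.89% of all genes rose and 8.79% fell. Hoxd3 was at 43 and 42 (1.61, SE 0.48, limma adjusted p = 0.022). Among the falls, Hoxa3, a pharyngeal arch and thymus gene, was at 69 and 78 and then at 9 and 22 (-2.29, SE 0.74, limma adjusted p = 0.0315), and Hoxb9 was at 147 and 166 and then at 54 and 81 (-1.23, limma adjusted p = 0.0233). Each of these 4 calls was lost when some library was left out, and with housekeeping genes held level Hoxd3 was at 0.65 and not called while the 3 falls remained, in a count of 0 higher and 9 lower. Without day 0 replicate 2 or day 7 replicate 1 there were 0 calls, without day 0 replicate 1 there was 1, and without day 7 replicate 2 there were 2. No adjusted p of the 4 exceeded 0.237 in those fits.

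**Figure D4:**
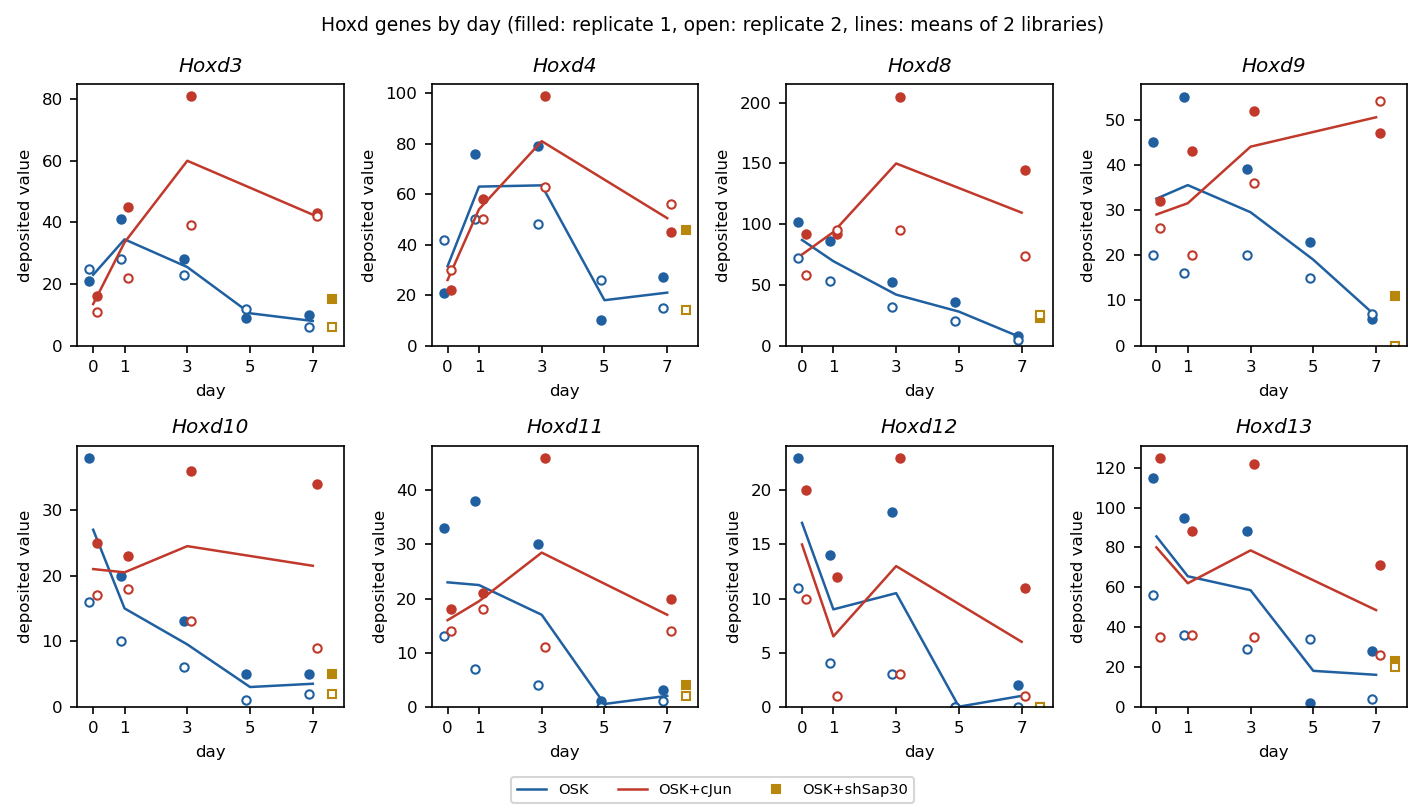
Deposited values (y axis, from 0) of the 8 Hoxd genes by day in OSK (blue), OSK+cJun (red) and OSK+shSap30 (ochre, day 7, drawn to the right of it), with replicate 1 filled, replicate 2 open and lines through the means of 2 libraries. Hoxd8 falls to 8 and 5 at OSK day 7 and stands at 145 and 74 in OSK+cJun and at 23 and 25 in OSK+shSap30.

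OSK+cJun and OSK were then compared at each shared day. At day 0 limma called 0 of 37 members, with 0 at an unadjusted p under 0.05, where 0.0312% of all genes were higher and 0.0436% lower. Hoxb9 was at 147 and 166 against 94 and 94, and Hoxc6 at 124 and 154 against 127 and 185. At day 1 limma again called 0, with 0 at an unadjusted p under 0.05, where 1.24% of all genes were higher and 0.742% lower. Hoxc5 was at 110 and 133 against 152 and 157, and Hoxc6 at 151 and 145 against 138 and 131. At day 3, 1 member was higher and 0 lower, where 4% of all genes were higher and 3.54% lower. That was Hoxd8, at 205 and 95 against 52 and 32 (1.75, SE 0.54, limma adjusted p = 0.0478). The call was lost without OSK+cJun day 3 replicate 1 (adjusted p = 0.381) and without either OSK day 3 library (adjusted p up to 0.299).

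At day 7 the Hoxd cluster had the largest median difference of the 4 clusters. All 8 Hoxd genes were above 0 in log2 difference, with a median of 2.22, and 3 were called higher. Limma called 4 members higher and 1 lower, where 6.76% of all genes were higher and 5.03% lower. Hoxd8 was at 145 and 74 with cJun against 8 and 5 without (3.83, SE 0.54, limma adjusted p = 0.000125). Hoxd9, which patterns limb and lower spine, was at 47 and 54 against 6 and 7 (2.78, SE 0.92, limma adjusted p = 0.0466), and Hoxd3 at 43 and 42 against 10 and 6 (2.31, SE 0.48, limma adjusted p = 0.00316). The groups do not overlap for these 3 genes, which were picked among called members without overlap. Of the other Hoxd genes none passed; Hoxd11, for example, was at 20 and 14 against 3 and 1. With 2 libraries a group, 24.5% of all tested genes lay higher without overlap in this comparison. Hoxc6 was higher too, at 151 and 217 against 62 and 86 (1.30, limma adjusted p = 0.0242). In Hoxa 10 of the 11 lay below 0 and 1 was called lower. Holding housekeeping genes level raised every gene by 0.53 in this comparison. In Hoxa 6 then lay below 0, and in Hoxd 6 of 8 were called higher. The 8 Hoxd genes were above 0 before this shift and could only stay there. The calls of Hoxd8 and Hoxd3 held whichever library was left out, and those of Hoxd9 and Hoxc6 were lost without any 1 of the 4 libraries (adjusted p up to 0.16 and 0.156). Without OSK day 7 replicate 1 or OSK+cJun day 7 replicate 1 there were 2 calls in all, and without replicate 2 of either group there were 3. The Hoxd9 call was also lost when the day 5 libraries were left out of the fit (adjusted p = 0.0506).

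A test of the difference in course asked whether OSK+cJun and OSK changed by unequal amounts over the 7 days. It called 2 members higher and 0 lower, where 2.46% of all genes were higher and 1.36% lower. The difference was 4.06 for Hoxd8 (SE 0.76, limma adjusted p = 0.00693). It was 3.05 for Hoxd3 (SE 0.68, limma adjusted p = 0.0182). All 8 Hoxd genes lay above 0, from 1.48 to 4.06. Holding housekeeping genes level raised every gene by 0.37 here, so these 8 could only stay above 0. The Hoxd8 call held in all 8 fits without 1 library (3.58 to 4.54). The Hoxd3 call was lost in 4 of the 8, those without OSK day 0 replicate 2, OSK day 7 replicate 2, OSK+cJun day 0 replicate 2 and OSK+cJun day 7 replicate 1 (2.93, 2.73, 2.80 and 3.04, adjusted p up to 0.0857). Markers of other cells moved with these groups at day 7. The 8 fibroblast markers summed to 34773 and 34680 in OSK+cJun and to 11323 and 10846 in OSK, but Col1a2 and Col3a1 made up most of this, and the other 6 summed to 1552 and 1459 against 1340 and 670. The 5 macrophage and blood markers summed to 658 and 374 against 111 and 138, mostly Cd68 at 527 and 351 against 47 and 105, with Adgre1 at 0 in both OSK+cJun libraries. The 4 endothelial markers summed to 1149 and 571 against 317 and 496, with Cdh5 at 0 in both OSK+cJun libraries. Pecam1 among them was lower, at 2 and 11 against 12 and 23. The 7 neural markers summed to 3439 and 3129 against 1593 and 1456, mostly Nes, Stmn2 and Tubb3. Map2, Pax6 and Neurog2 among them were not higher. Pluripotency markers other than Pou5f1 summed to 38 and 18 in OSK+cJun and to 336 and 438 in OSK. The part of these markers in the Hoxd result was not tested.

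With the hairpin against Sap30, the clearest member was Hoxc5, which was lower, and the balance of the rest depended on the reference. Sap30 itself was at 20 and 41 in OSK+shSap30 and at 301 and 378 in OSK day 7. None of the 13 groups received a control hairpin, so loss of Sap30 and the lentiviral infection cannot be told apart here. The column names of these 2 libraries are also written in another style than those of the other groups. Any difference in handling was not tested. Hoxc genes summed to 124 and 230 with the hairpin against 376 and 480 without, while Hoxa genes summed to 514 and 605 against 935 and 426. Limma called 4 members lower and 1 higher, where 4.92% of all genes were lower and 4.93% higher. With housekeeping genes held level this became 1 lower and 4 higher, and the median over members turned from -0.33 to 0.41. Hoxc5 was at 12 and 15 with the hairpin against 95 and 99 without (-2.76, SE 0.56, limma adjusted p = 0.0037), a call that held whichever library was left out and with housekeeping genes held level (-2.03). Hoxc9 was at 6 and 7 against 25 and 19 (-1.61, SE 0.47, limma adjusted p = 0.0294), and Hoxc4 at 35 and 68 against 104 and 207 (-1.57, SE 0.41, limma adjusted p = 0.0163). Hoxb3 was at 24 and 97 against 127 and 141 and shares 52.9% of its exon bases with the antisense gene Hoxb3os, which this unstranded library kit cannot separate. Hoxd8 rose, at 23 and 25 against 8 and 5 (1.77, SE 0.54, limma adjusted p = 0.0349). With housekeeping genes held level the calls of Hoxc9, Hoxc4 and Hoxb3 were lost (-0.87, -0.83 and -0.71), those of Hoxc5 and Hoxd8 remained, and Hoxb4 (1.32) and Hoxb9 (1.17) were among the new higher ones. Hoxc9 lost its call without any 1 of the 4 libraries (adjusted p up to 0.121), and Hoxd8 lost it without OSK day 7 replicate 2 or either OSK+shSap30 library (adjusted p up to 0.237). Hoxc4 lost it without OSK day 7 replicate 2 or OSK+shSap30 replicate 1 (adjusted p up to 0.223). Of the 5 calls, 1 was kept without OSK day 7 replicate 2 and 1 without OSK+shSap30 replicate 1, and 3 without either other library.

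**Figure D5:**
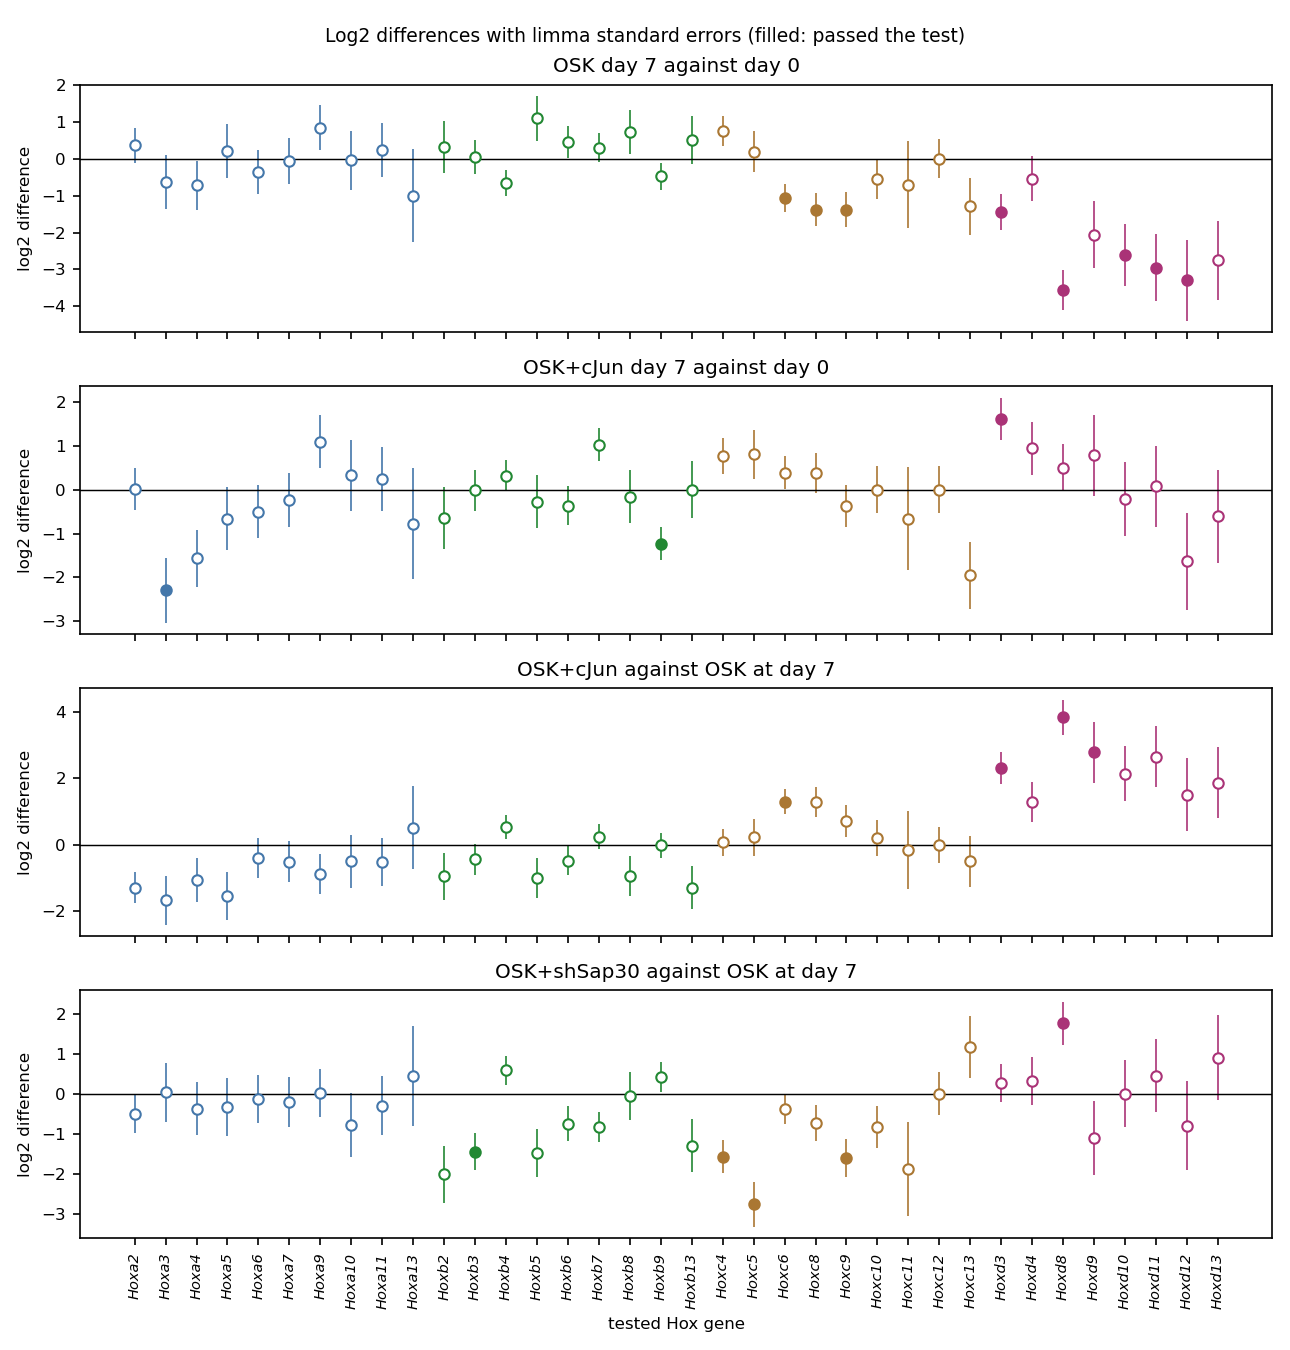
Log2 differences (y axis) of 36 tested Hox genes in 4 comparisons, with limma standard errors as bars and filled points for genes that passed the test, coloured by cluster. Filled Hoxd points lie below 0 from day 0 to day 7 of OSK and above 0 in OSK+cJun against OSK at day 7, and the lowest filled point of OSK+shSap30 against OSK is Hoxc5 at -2.76.

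OSK day 7 is the control of both day 7 comparisons, so they are not independent, and their values are given side by side. Hoxd8 was at 3.83 for cJun and 1.77 for the hairpin, and Hoxc5 at 0.22 and -2.76. Hoxc6 was at 1.30 for cJun, and with the hairpin stood at 41 and 75 against the same 62 and 86. Hoxd9, at 2.78 for cJun, was at 11 and 0 with the hairpin against 6 and 7.

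Replicates of a group differed along the clusters in a shared way. In the 8 groups of OSK and OSK+cJun at days 0, 1, 3 and 7, the posterior genes of Hoxa, Hoxd and Hoxc up to Hoxc11 (12 genes) were higher in replicate 1 in 92 of 96 pairs of gene and group, and the ratio of their sums ran from 1.71 to 2.4. Hoxd13, for example, was at 115 and 56 in OSK day 0, 95 and 36 in day 1, 88 and 29 in day 3 and 125 and 35 in OSK+cJun day 0. In the day 5 libraries the same 12 genes had a ratio of 0.48. In OSK+shSap30 it was 0.87, with 7 of them higher in replicate 1 and 4 in replicate 2. Hoxb2 to Hoxb9 went the other way when the 8 groups were pooled, being higher in replicate 2 in 45 of 64 pairs. The ratio of their sums ran from 0.67 to 1.03, and not every group followed. Of the 10 Hoxb genes, 7 were higher in replicate 1 and 2 in replicate 2 in OSK+cJun day 3. In OSK day 0 these numbers were 6 and 3. Central genes over all clusters were balanced, with sums at ratios of 0.79 to 1.24. MEF replicates had a ratio of 1.22 for the 12 posterior genes and of 0.69 for Hoxb2 to Hoxb9. The labels do not say what the replicate numbers stand for.

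Genes whose group means followed a member most closely over the 13 groups were looked up for the highest called member of each cluster, as a description. For Hoxd8 these were Zdhhc8 (Pearson r = 0.979), Parm1 and Htr1b, and the nearest other Hox gene was Hoxd3 (0.939). For Hoxc6 they were Capn2 (0.988), App and Lhfp, for Hoxa10 Foxp1 (0.978), Itgb8 and Zic1, and for Hoxb9 Rasa3 (0.939), Ykt6 and Hic1. The nearest Hox gene to Hoxb9 was Hoxc8, at 0.67.

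Partners and regulators of Hox genes were taken as lists, whose counts are to be read against the shares of all genes: 22.4% higher and 20.6% lower in ESC against MEF, 11.3% and 12.6% over 7 days of OSK, and 6.76% and 5.03% in OSK+cJun against OSK at day 7. Of 9 genes for Pbx, Meis and Pknox proteins, which bind DNA together with Hox proteins, 3 fell and 1 rose between MEF and ESC (median -0.88). Meis1 was at 237 and 247 in MEF and at 6 and 12 in ESC (-4.67, limma adjusted p = 4.01e-08). From day 0 to day 7 of OSK 2 of the 9 fell and 2 rose, and Meis2 went from 271 and 299 to 581 and 912 (1.35, limma adjusted p = 0.0215). Between OSK+cJun and OSK at day 7 only Pknox2 passed, lower.

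Of 16 polycomb genes, whose proteins keep Hox genes silent, 10 rose and 2 fell between MEF and ESC, with a median of 1.56 against 0.13 for all genes. Over 7 days of OSK 5 rose and 0 fell. Jarid2, a recruiter of the Ezh2 complex, was at 81 and 142 on day 0 and at 1029 and 1158 on day 7 of OSK, against 77 and 126 and then 321 and 321 in OSK+cJun; the difference in course was -1.64 (SE 0.42, limma adjusted p = 0.0351). Of 8 trithorax genes, whose proteins keep active genes active, 6 rose and 0 fell between MEF and ESC, 3 rose over 7 days of OSK and 2 were lower in OSK+cJun than in OSK at day 7. On the housekeeping reference every gene of these lists moves by the shift given above, which for day 7 of OSK exceeds the medians of the trithorax list (0.78) and of the polycomb list (0.60) and brings both below 0. Neither of the H3K27 demethylase genes Kdm6a and Kdm6b passed in any of the 18 comparisons.

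In the retinoic acid pathway, which switches on anterior Hox genes in the embryo, 14 of 16 listed genes were tested, and 10 fell and 0 rose between MEF and ESC. At day 7, 4 were higher and 0 lower in OSK+cJun than in OSK. Rdh10, which makes the precursor of retinoic acid, was at 1059 and 1101 with cJun against 90 and 123 without (3.35, SE 0.40, limma adjusted p = 3.56e-05). Cyp26b1, which degrades it, was at 596 and 398 against 110 and 30 (3.06, SE 0.47, limma adjusted p = 0.000275). The binding proteins Crabp1 and Crabp2 were higher as well, by 2.54 and 1.59. The differences in course of Rdh10, Cyp26b1 and Crabp1 also passed, at 3.20, 3.18 and 2.14.

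Other homeobox and T-box genes that mark limb, face and body wall followed the Hox genes in ESC, where 18 of 21 tested fell and Tbx3 rose. Over 7 days of OSK 11 of 21 fell and 1 rose, with a median of -1.79, and in OSK+cJun 4 fell and 0 rose, with a median of -1.30. The difference between the 2 courses passed for 0 of the 21, with the lowest limma adjusted p at 0.276 for Tbx15. Prrx2, a limb and face gene, was at 334 and 407 at OSK day 0 and at 12 and 4 on day 1, a step in which no Hox gene was called. Of 11 tested genes that flank the clusters, 4 rose and 0 fell between MEF and ESC. Over 7 days of OSK 2 rose and 0 fell, and between OSK+cJun and OSK at day 7 Hnrnpa1 and Skap2 were lower. Of 3 tested among Cdx genes and Gdf11, which act upstream of posterior Hox genes, Cdx1 and Cdx2 rose and Gdf11 fell between MEF and ESC. Cdx2 was at 0 and 2 in MEF and at 4 and 27 in ESC. Cdx1 was called higher at days 3, 5 and 7 of OSK, from listed at 0 on day 0 to 63 and 18 on day 7. It was listed at 0 in both OSK+cJun libraries at day 7. It was called lower in OSK+cJun than in OSK at days 3 and 7, and in the difference in course. Gdf11 was higher in OSK+shSap30 than in OSK at day 7.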

How the data were processed

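The authors deposited 1 table of whole-number score values for 18198 genes in 26 libraries, 18039 with a symbol. Per the labels' protocols, libraries were made with a TruSeq RNA kit, which does not mark strand; per the submitters' processing notes, bcl2fastq, Bowtie2, RSEM and the mm10 build were used, with no versions given, and how the values were brought to 1 distribution is not given in the sources used here. At each rank the deposited score differed by at most 2 between libraries, and totals ran from 4619641 to 4624161, so the values are not counts and depth is unknown. A count test had been planned; limma 3.58.1 in R 4.3.3 was used instead, with an intensity trend and robust variances, on log2(value + 1) of the 16038 genes that reached 10 in 2 or more libraries. The fit used 1 mean per group over all 26 libraries, for 18 comparisons, with Benjamini-Hochberg adjustment over all genes in each; calls need an adjusted p below 0.05 and a log2 difference of at least 1. It was checked on simulated data. Gene positions and shared exon bases came from the GENCODE release M21 annotation (GRCm38), and promoter windows from RefSeq. Alternatives were a pseudocount of 10, no filter, centring on 10 housekeeping genes, a replicate block, the spread of the compared libraries alone, each library left out, and, added after seeing the data, the fit without the OSK day 5 libraries. Genes named in each comparison were up to 3 called members with the largest rise and up to 3 with the largest fall among those without overlap, the 2 highest where none was called, and paralogues called in opposite directions; others were named after their values were seen. Some results are not reported here. The members and lists were chosen with earlier results of these data known.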

Additional observations from a re-analysis of the deposited data

Results flagged for a closer look

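Of the members, 2 changed from day 0 to day 7 by different amounts in OSK and OSK+cJun by a test of that difference. Of all tested genes, 2.46% were higher and 1.36% lower in that test. Hoxd8 differed by 4.06 on the log2 scale (SE 0.76, limma adjusted p = 0.00693), and Hoxd3 by 3.05 (SE 0.68, limma adjusted p = 0.0182). The Hoxd3 call depended on single libraries, and 62.8% of its exon bases are shared with other annotated genes. Hoxd8 was lower at day 7 than at day 0 in both OSK libraries, with 8 and 5 against 102 and 72, whereas in OSK+cJun it was at 145 and 74 against 92 and 58.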

How the results depend on the processing

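Holding 10 housekeeping genes level gave 1 call at OSK day 1 against day 0, 15 at day 3, 18 at day 5 and 20 at day 7, all lower, 2 higher at day 1 of OSK+cJun, 10 and 9 lower at its days 3 and 7, and 2 and 10 in OSK+cJun against OSK at days 3 and 7; it turned Hoxc6 at day 0 to 0.012 and Hoxc5 at day 1 to 0.22 in OSK+cJun against OSK, neither of them called. A pseudocount of 10 gave 1 call each in OSK day 1 against day 0, OSK+cJun day 1 against day 0 and iPSC against ESC, 8 in OSK+cJun against OSK at day 7 and 3 in OSK+shSap30 against OSK. Without the filter there was 1 call at OSK+cJun day 3 against day 0 and 0 in OSK+cJun against OSK at day 3. With the spread of the compared libraries alone there were 0 calls in iPSC against ESC, OSK day 0 against MEF and OSK+shSap30 against OSK, 2 and 1 at OSK days 5 and 7, 1 and 2 at OSK+cJun days 3 and 7, and 2 in OSK+cJun against OSK at day 7. The cause of these shifts was not tested. A replicate block gave 1 call at OSK day 1 against day 0, where there had been 0, and moved no other count by over 1.5 times; the labels do not say that the numbers pair samples, and over 78 pairs of groups same-numbered libraries correlated above 0.1 in 28 (all genes, median r = -0.001) and in 51 (Hox genes, median r = 0.256). Leaving out 1 library gave 0 to 1 calls for OSK day 0 against MEF, 0 to 4 and 2 to 6 for OSK days 5 and 7, 0 to 1 and 0 to 2 for OSK+cJun days 3 and 7, 0 to 1 and 2 to 3 for OSK+cJun against OSK at days 3 and 7, 1 to 5 for OSK+shSap30 against OSK and 1 to 2 for the difference in course. Signs turned there for uncalled values only: Hoxc6 ran from -0.457 to 0.082 at OSK day 1, from -0.375 to 0.164 at OSK day 3, from -0.057 to 0.253 at OSK+cJun day 1 and from -0.418 to 0.121 in OSK+cJun against OSK at day 0, and Hoxa10 from -0.888 to 0.044 at OSK day 1 and from -0.837 to 0.676 at OSK day 3.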
